A study of Mus musculus with 31 samples.

Results

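The genes described here are 9 that neutrophils are known for: S100a8, S100a9, Ngp, Ltf, Mmp8, Mmp9, Retnlg, Csf3r and Trem1. They were chosen by name, and each was read from its single probe set on a gene expression array, out of 19938 genes that could be read in this way. All 9 passed the filter on dim signals and were among the 14705 genes tested. Values are log2 signals, so a difference of 1 is a doubling. Each sample was lung tissue of male mice labelled as aged 6 weeks, of the inbred strains AKR and C57 BL/6 (C57 below). The mice were kept in room air or exposed to cigarette smoke. Most then had saline instilled into the trachea, either plain or carrying lipopolysaccharide (LPS), the bacterial endotoxin that triggers innate immunity through Tlr4.

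The instilled mice form 8 groups: C57 and AKR, each after air or smoke, each with saline or LPS. These groups hold 3 arrays each, except AKR after smoke with LPS, which holds 2. The other 3 groups breathed room air and had no instillation: C57 titled 6 weeks (3 arrays), AKR titled 6 weeks (3 arrays) and AKR titled 3 weeks (2 arrays). The length of exposure of instilled mice is uncertain, since their titles say 3 weeks and the series text says 6. The LPS dose and the time from instillation to lung collection are not given in the sources used here. The labels call the arrays of a group biological replicates and do not say more about the mice behind each one.

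Neutrophils are made in bone marrow and reach the lung from blood, and instilled LPS is a standard way to draw them in. They carry ready-made granules. Primary granules hold myeloperoxidase and the serine proteases, specific granules hold lactoferrin (Ltf), Ngp and the collagenase Mmp8, and gelatinase granules hold Mmp9. S100a8 and S100a9 pair as calprotectin, a calcium-binding protein that is abundant in the neutrophil cytosol and is also made by monocytes. Retnlg is a resistin-like secreted protein of mouse neutrophils. Csf3r is the receptor for G-CSF, the cytokine that drives neutrophil production, and Trem1 is a surface receptor of neutrophils and monocytes that amplifies inflammatory signalling through the adaptor Tyrobp. Most granule proteins are transcribed in the marrow, so the granule genes and the surface genes need not behave alike in lung RNA. In RNA from whole tissue, more cells of a type and more RNA per cell cannot be told apart.

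The promoters of the granule genes are shown because transcription factors of the C/EBP family and PU.1 are known regulators of this program. RefSeq sequences (GRCm38.p6) were at hand for 8 of the 9 genes; Mmp9 was not matched. The windows are the 250 bases before the start of S100a8 (chr3:90668821-90669070) and of its neighbour S100a9 (chr3:90695722-90695971), and of the specific granule genes Ngp (chr9:110419558-110419807), Ltf (chr9:111019042-111019291) and Mmp8 (chr9:7558179-7558428). Each is written 5′ to 3′ on the gene's strand, with capitals marking matches to a C/EBP motif (TTGCNNAA), a PU.1 motif (GAGGAA) or a TATA box (TATAAA).
S100a8: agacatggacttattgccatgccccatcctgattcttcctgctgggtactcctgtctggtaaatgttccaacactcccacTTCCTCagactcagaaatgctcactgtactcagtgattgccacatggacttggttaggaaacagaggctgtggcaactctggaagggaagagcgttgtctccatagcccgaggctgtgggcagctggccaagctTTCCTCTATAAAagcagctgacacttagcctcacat
S100a9: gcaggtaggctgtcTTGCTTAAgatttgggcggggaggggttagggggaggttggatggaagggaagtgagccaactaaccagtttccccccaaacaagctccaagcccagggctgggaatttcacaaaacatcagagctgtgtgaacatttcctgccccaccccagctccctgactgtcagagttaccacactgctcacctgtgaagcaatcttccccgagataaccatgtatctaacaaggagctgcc
Ngp: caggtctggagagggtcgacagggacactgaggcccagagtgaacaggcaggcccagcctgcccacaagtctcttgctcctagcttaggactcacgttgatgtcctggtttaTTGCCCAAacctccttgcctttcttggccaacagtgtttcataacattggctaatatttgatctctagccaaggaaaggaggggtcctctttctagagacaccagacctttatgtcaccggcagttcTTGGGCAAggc
Ltf: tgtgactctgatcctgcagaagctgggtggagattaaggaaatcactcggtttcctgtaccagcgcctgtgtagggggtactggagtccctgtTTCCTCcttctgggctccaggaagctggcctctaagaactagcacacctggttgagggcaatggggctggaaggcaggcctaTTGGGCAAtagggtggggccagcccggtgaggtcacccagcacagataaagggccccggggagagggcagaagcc
Mmp8: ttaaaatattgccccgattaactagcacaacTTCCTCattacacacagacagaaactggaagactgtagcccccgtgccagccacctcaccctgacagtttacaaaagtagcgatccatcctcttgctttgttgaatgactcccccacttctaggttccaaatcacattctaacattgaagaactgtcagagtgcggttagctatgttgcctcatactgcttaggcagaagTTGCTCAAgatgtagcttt

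The C/EBP letters, read on both strands, lay in 5 of the 8 windows: S100a9, Ngp, Ltf, Mmp8 and Retnlg. Of 32851 RefSeq promoter windows of the same length, 9.564% held them. Ngp held 2 matches, and its second one ended 4 bases before the start. The PU.1 letters, on both strands, also lay in 5 of the 8 windows (S100a8, Ltf, Mmp8, Csf3r and Trem1), against 23.25% of all windows. Ltf and Mmp8 held both kinds. The TATA letters, read forward only, lay in S100a8 alone, from 30 to 25 bases before its start, against 7.592% of all windows. An AP-1 motif (TGANTCA, both strands; 6.749% of all windows) and an NF-kB motif (3.899% of all windows) matched none of the 8. A match is a run of letters and not a measured binding site.

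Some facts of the arrays bear on every value below. The arrays fall into a larger set of 18 with medians of 6.96 to 7.10 and a smaller set of 13 with medians of 6.80 to 6.90. Every C57 array and the AKR 6-week room air arrays belong to the larger set, and the remaining AKR arrays to the smaller one. A direct AKR against C57 comparison of instilled mice therefore spans both sets, and there strain and set cannot be told apart; a shift common to a set cancels when changes within each strain are compared. A pair of C57 arrays stood apart from their labels: the array labelled smoke saline 3 read like LPS arrays and the array labelled smoke LPS 3 read like saline arrays. They were kept under their labels, and results that rest on them are given with and without them. The comparisons use limma (1 fit over 31 arrays, Benjamini-Hochberg adjustment over 14705 genes, threshold 0.05), and ± marks a standard error unless SD is written. Across arrays, 5 of the genes were above the filter on all 31: S100a9, Ltf, Mmp9, Retnlg and Csf3r. The dimmest was Ngp, above it on 10 arrays, only 2 of which were among the 20 arrays without LPS; Mmp8 was above it on 16 arrays, Trem1 on 18 and S100a8 on 27. Ngp was tested only because its signal on LPS arrays passed the filter, so being higher with LPS was a condition of its test, and counts of calls with LPS are also given over the 8 other genes. Differences of Ngp, Mmp8 and Trem1 from groups without LPS start near the array's floor and may be compressed.

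**Figure D1:**
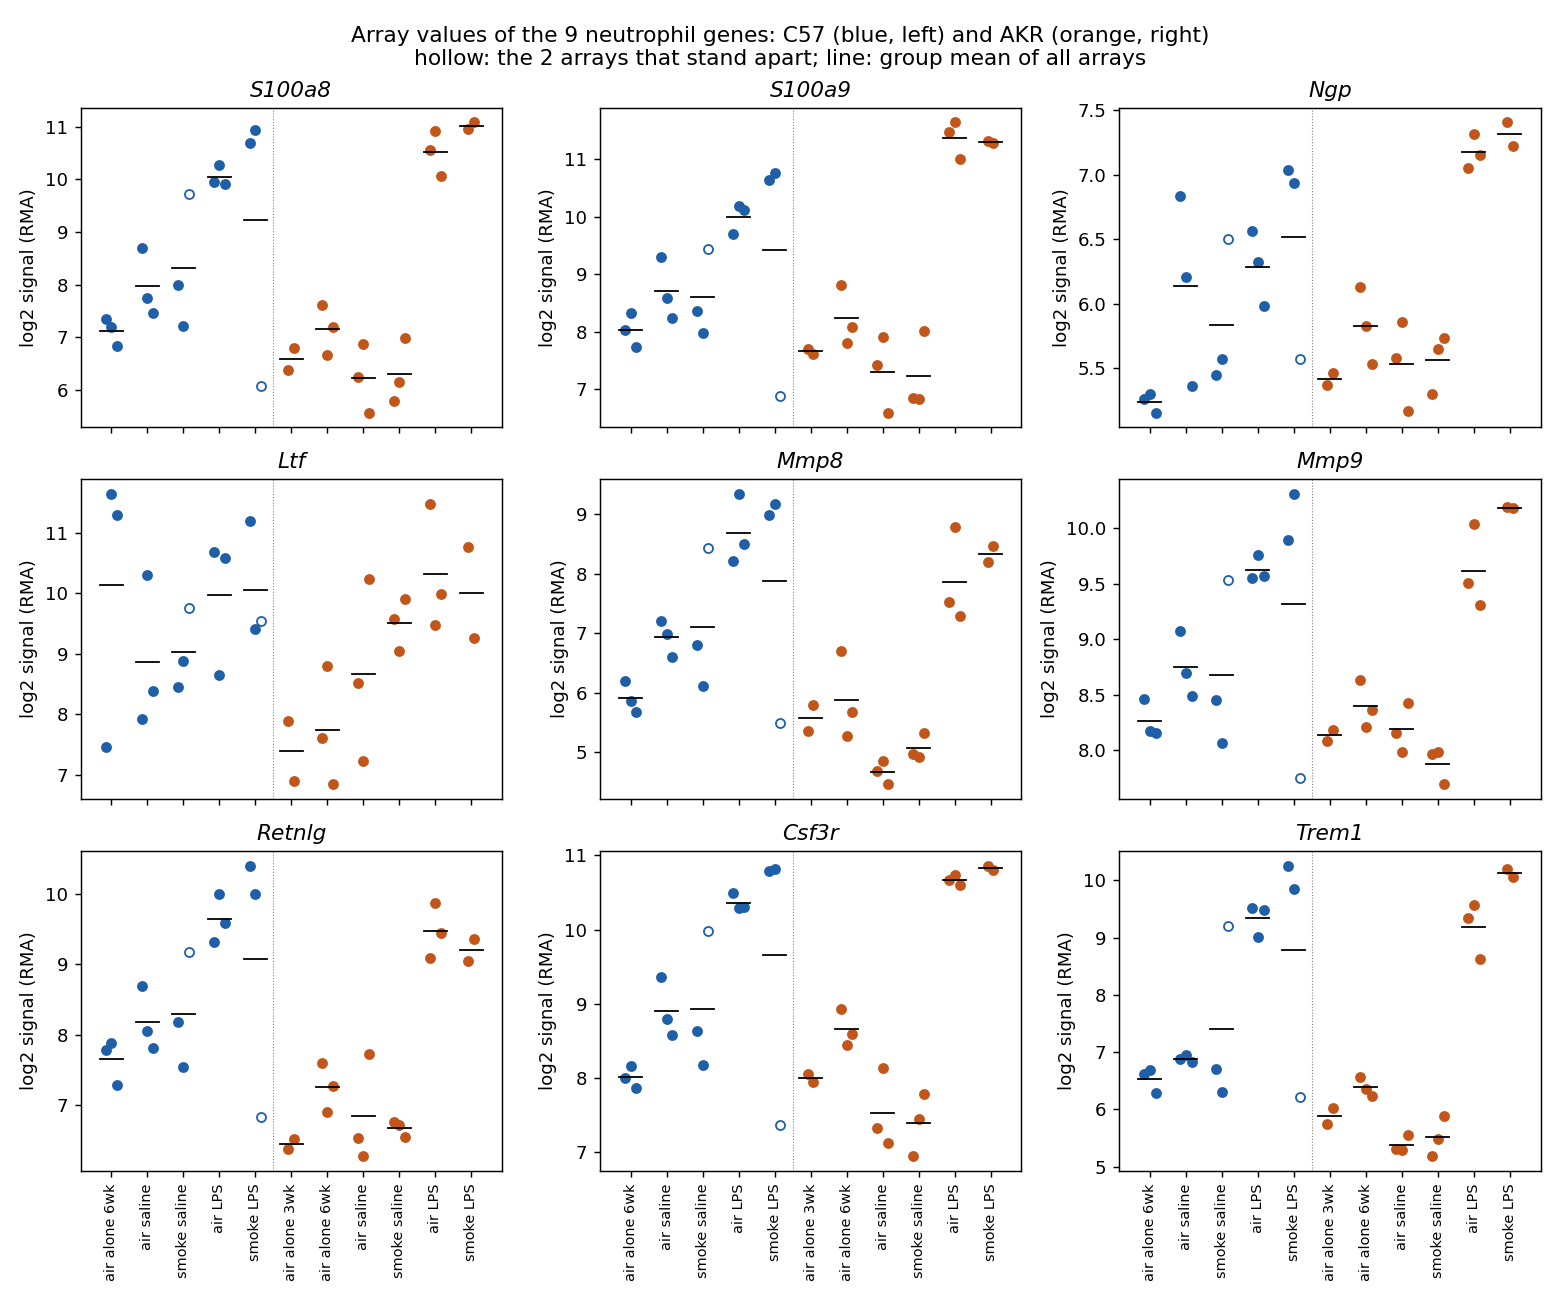
Log2 signal of each of the 9 genes (vertical axis) on every array, by group (horizontal axis), with C57 in blue, AKR in orange, group means as lines and the discordant pair of C57 arrays as hollow points. For 8 genes the LPS groups stand above the other groups of their strain apart from the hollow points and, for Ngp in C57, overlap with saline; Ltf is scattered within groups.

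After room air, LPS raised 8 of the 9 genes in AKR, all but Ltf, and 7 of the 8 other than Ngp. In C57 only Trem1 passed with all arrays, although 7 genes, all but Ngp and Ltf, had every LPS array above every saline array. Over all genes tested, 9.45% were called higher in AKR and 11.5% in C57, and 15.4% and 24% had groups that did not overlap in that direction. The median log2 difference of the 9 genes was 3.13 in AKR (3.17 without Ngp) and 1.45 in C57, beside -0.04 and -0.01 over all genes tested. Without the discordant pair, which is not part of this comparison but widens the shared estimate of spread, 7 genes were called higher in C57 (15.2% of all genes) and the same 8 in AKR (11.8%).

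Of the calprotectin genes, S100a8 read 6.26, 6.87 and 5.57 on the AKR saline arrays and 10.57, 10.93 and 10.06 with LPS. On the C57 saline arrays it read 8.70, 7.75 and 7.46, and with LPS 9.95, 10.27 and 9.91. The groups did not overlap in either strain, and the AKR saline arrays were the lowest of the 4 groups. S100a8 rose by 4.28 ± 0.79 in AKR (adjusted p = 0.00072, limma) and differed by 2.07 ± 0.79 in C57 (adjusted p = 0.074; 1.5e-04 without the pair). S100a9 read 7.42, 7.90 and 6.60 with saline in AKR, and with LPS 11.46, 11.64 and just under 11, a rise of 4.06 ± 0.64 (limma adjusted p = 2.0e-04). In C57 it read 9.29, 8.59 and 8.24 with saline and 9.69, 10.18 and 10.12 with LPS, a difference of 1.29 ± 0.64 (limma adjusted p = 0.165; 0.0064 without the pair). The lowest C57 LPS array of S100a9 thus lay only just above the highest saline array, while in AKR the groups were more than 3 units apart.

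Of the granule genes, Mmp8, the neutrophil collagenase, read 4.69, 4.85 and 4.46 on the AKR saline arrays and 7.52, 8.78 and 7.29 with LPS, a rise of 3.20 ± 0.66 (limma adjusted p = 0.0018). In C57 it read 7.21, 6.99 and 6.61 with saline and 8.21, 9.34 and 8.49 with LPS, a difference of 1.74 ± 0.66 (limma adjusted p = 0.070; 8.5e-04 without the pair). The C57 saline arrays were close to the lowest AKR LPS arrays. Ngp, a specific granule protein, read 5.58, 5.86 and 5.17 with saline and 7.05, 7.32 and 7.16 with LPS in AKR, where it rose by 1.64 ± 0.34 (limma adjusted p = 0.0018). In C57 the Ngp groups overlapped, with saline arrays at 6.84, 6.21 and 5.36 and LPS arrays at 6.57, 6.32 and 5.98, a difference of 0.15 ± 0.34 with a 95% interval of -0.54 to 0.85. Mmp9, the gelatinase, had the smallest rise among the genes called in AKR, 1.42 ± 0.41 (limma adjusted p = 0.018), and its call was lost without AKR air saline 1, AKR air saline 2 or AKR air LPS 2. It went from saline arrays at 8.16, 7.99 and 8.43 to LPS arrays at 9.51, 10.03 and 9.30. In C57 Mmp9 read 9.07, 8.69 and 8.49 with saline and 9.55, 9.75 and 9.57 with LPS (0.87 ± 0.41, limma adjusted p = 0.140; 9.4e-04 without the pair). Retnlg rose by 2.62 ± 0.58 in AKR (limma adjusted p = 0.0030) and differed by 1.45 ± 0.58 in C57 (0.086; 0.0013 without the pair), with no overlap in either strain.

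Of the surface genes, Trem1 was the one called in both strains. It read 5.31, 5.29 and 5.56 with saline and 9.33, 9.57 and 8.63 with LPS in AKR, a rise of 3.80 ± 0.68 (limma adjusted p = 5.8e-04), and in C57 it rose from 6.88, 6.96 and 6.83 to 9.51, 9.01 and 9.48, by 2.45 ± 0.68 (0.018). Its C57 saline arrays were the tightest of any group of 3 for this gene, with an SD of 0.06. That call did not survive leaving out any 1 of the C57 saline arrays or LPS array 3 while the discordant pair stayed in the fit; without the pair, 7 genes were called whichever array was left out. Csf3r read 7.33, 8.13 and 7.13 with saline and 10.66, 10.73 and 10.60 with LPS in AKR, a rise of 3.13 ± 0.57 (limma adjusted p = 6.3e-04). In C57 it read 9.36, 8.79 and 8.57 with saline and 10.49, 10.29 and 10.30 with LPS, a difference of 1.45 ± 0.57 (limma adjusted p = 0.079; 5.1e-05 without the pair). The LPS arrays of Csf3r were within 0.5 units of each other across strains, and the saline arrays were not.

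**Figure D2:**
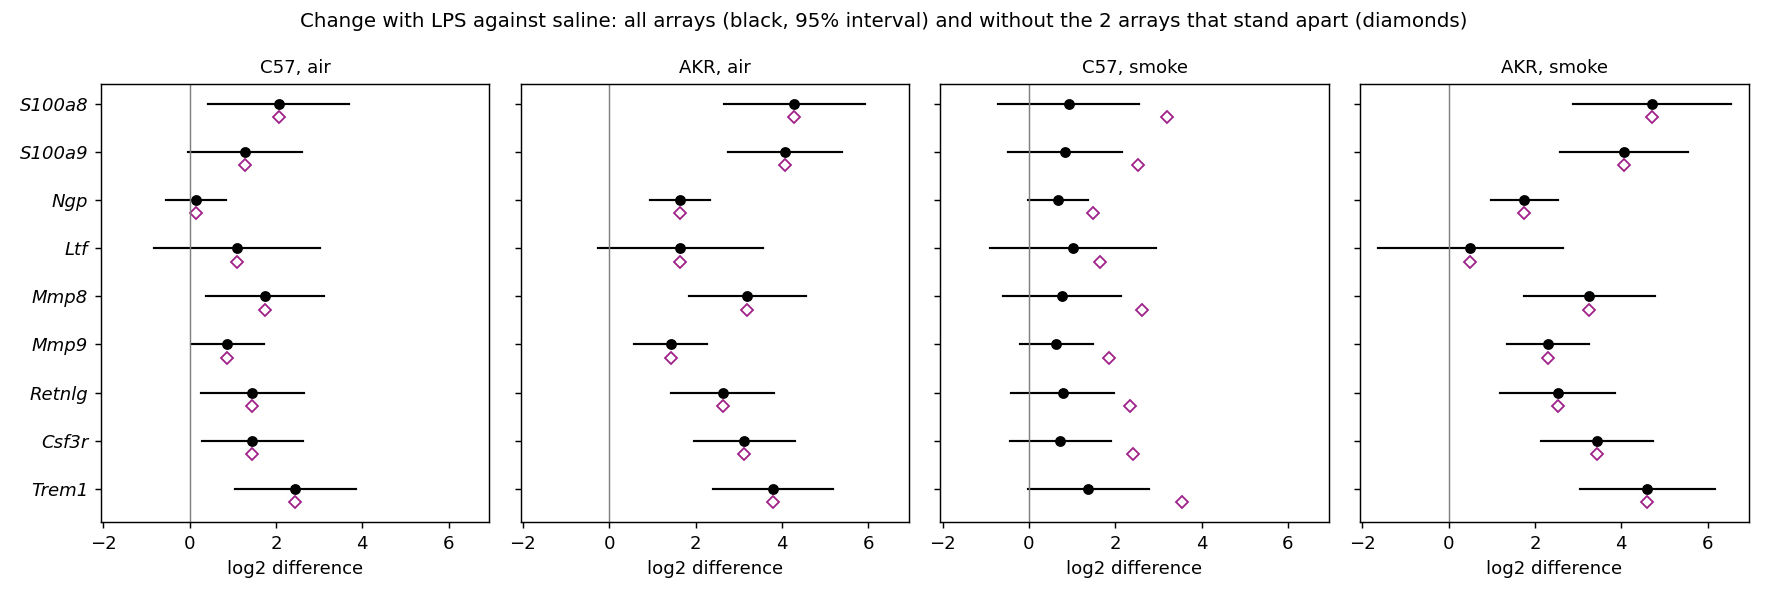
Log2 difference of LPS against saline (horizontal axis) for each gene (vertical axis) in 4 comparisons, with all arrays (black points, 95% intervals) and without the discordant pair (diamonds). Diamonds and points differ only in C57 after smoke, where the median moves from 0.78 to 2.40.

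After smoke, AKR gave the same 8 calls (7 without Ngp), with a median of 3.26 over the 9 genes (16.9% of all genes were called higher). S100a8 read 5.79, 6.16 and 6.99 with saline and 10.95 and 11.09 with LPS, a rise of 4.71 ± 0.88 (limma adjusted p = 4.5e-04). Trem1 read 5.19, 5.49 and 5.88 with saline and 10.20 and 10.05 with LPS, a rise of 4.61 ± 0.76 (limma adjusted p = 1.3e-04). For each of the 8 genes both LPS arrays lay above all 3 saline arrays, as they did for 29.5% of all genes. Leaving out AKR smoke LPS 2 left 7 calls, with Retnlg no longer called.

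In C57 after smoke the result turned on the discordant pair. With all arrays none of the 9 was called (limma; 0% of all genes were called higher, and 0 of the 9 had an unadjusted p under 0.05), and the groups overlapped for every one of them. The smoke LPS arrays of S100a8 read 10.69, 10.94 and 6.08, and the smoke saline arrays 8.002, 7.21 and 9.73. Array 3 was the lowest of the LPS group and the highest of the saline group for S100a8, and for every other gene but Ltf. Trem1 read 10.26, 9.85 and 6.22 with LPS and 6.71, 6.30 and 9.20 with saline. Without the pair, 8 genes were called higher (10.9% of all genes), all but Ltf, or 7 without Ngp, and Trem1 differed by 3.55 ± 0.25 (limma adjusted p = 9.7e-10) and S100a8 by 3.21 ± 0.43 (1.1e-05). Leaving out smoke LPS 3 alone also gave 8 calls; leaving out smoke saline 3 alone gave 0. Without the pair each of these groups has 2 arrays.

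The strain question is whether LPS changed the genes more in AKR than in C57. After air the AKR change exceeded the C57 change for all 9 genes, by a median of 1.45, but none passed with all arrays (0.802% of all genes were called higher; limma; 3 of the 9 had an unadjusted p under 0.05). The largest excess was that of S100a9, 2.77 ± 0.90 (limma adjusted p = 0.169), then S100a8 at 2.21 ± 1.12 (0.473), Csf3r at 1.68 ± 0.80 (0.433) and Ngp at 1.49 ± 0.47 (0.156). Without the pair 5 genes passed, S100a8, S100a9, Ngp, Csf3r and Trem1, or 4 without Ngp (1.7% of all genes were called higher), with S100a9 at 2.77 ± 0.47 (limma adjusted p = 0.0013), Csf3r at 1.68 ± 0.32 (0.0035) and Trem1 at 1.35 ± 0.29 (0.0098). Mmp8 at 1.45 ± 0.49 (0.133), Retnlg at 1.17 ± 0.43 (0.176) and Mmp9 at 0.55 ± 0.25 (0.306) did not. Leaving out 1 further array then gave 4 to 5 calls.

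After smoke the median excess of AKR was 2.49 with all arrays and 0.64 without the pair, and no gene was called in either fit (limma; 1.47% and 0.775% of all genes were called higher; 7 of the 9 had an unadjusted p under 0.05 with all arrays). Leaving out 1 array gave 0 to 5 calls, with 5 calls without C57 smoke LPS 2, 4 without C57 smoke LPS 1, and 1 each without C57 smoke saline 2 and AKR smoke saline 3. S100a9 exceeded by 3.23 ± 0.96 with all arrays (limma adjusted p = 0.078) and by 1.54 ± 0.55 without the pair (0.266). For Retnlg the value was 1.75 ± 0.87 with all arrays and 0.19 ± 0.51 without the pair.

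**Figure D3:**
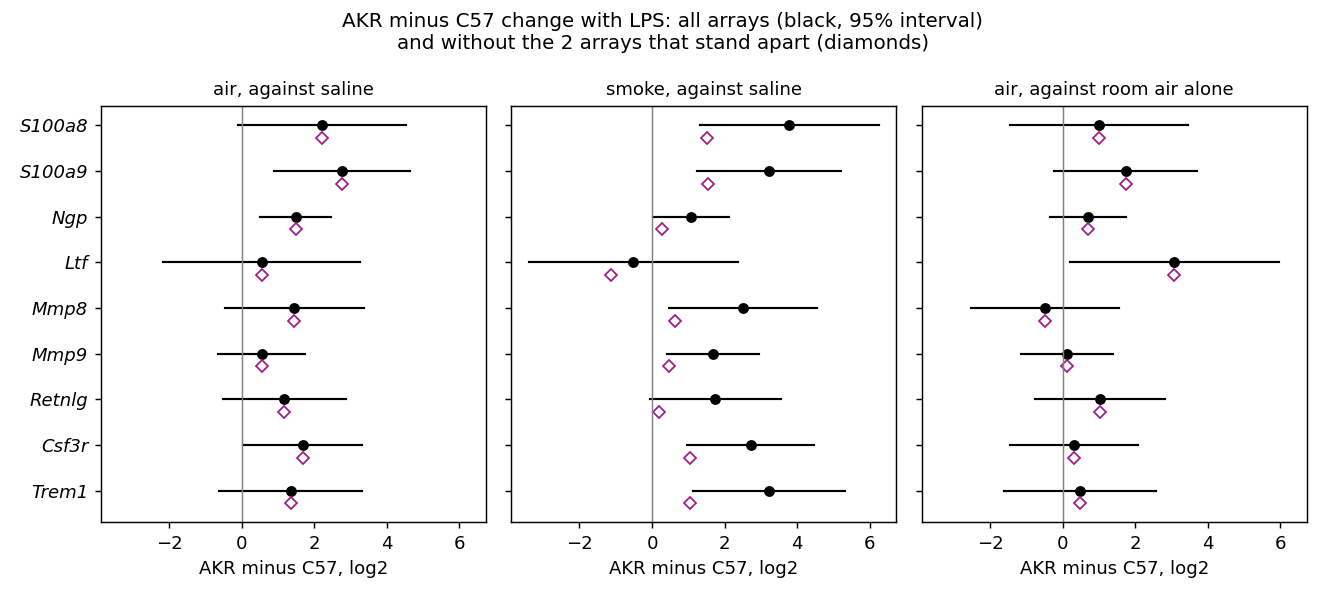
AKR minus C57 difference in the LPS change (horizontal axis, log2) for each gene (vertical axis) after air and after smoke against saline, and after air against room air alone, with all arrays (black points, 95% intervals) and without the discordant pair (diamonds). After air the median is 1.45 against saline and 0.71 against room air alone.

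The size of the excess after air differed with the group taken as the baseline. The gap between the baselines is the strain difference in the saline change, given below. In it no gene was called with all arrays (1.17% of all genes were called lower). Without the pair 2 were called lower (3.23% of all genes). Measured from uninstilled mice (C57 at 6 weeks, AKR at 3 weeks, so that each strain stayed within its set of arrays), LPS after air gave 8 higher calls in each strain: all but Ltf, or 7 without Ngp (15.1% of all genes in C57 and 5.54% in AKR). These comparisons were added after the data were seen and share their LPS arrays with those above. The LPS arrays of both strains are titled 3 weeks. On this baseline LPS and titled length therefore cannot be told apart in C57, nor in the strain difference. In C57 the count fell to 4 without C57 air LPS 2 or uninstilled C57 array 3, and to 5 without uninstilled C57 array 2; without the discordant pair it was 8 whichever array was left out. In AKR, whose baseline is 2 arrays, the count fell to 1 or 0 without either of them, and to 6 or 7 without AKR air LPS 1 or 2; without the discordant pair it was 8 to 9 whichever array was left out. On this baseline Mmp8 rose by 2.77 ± 0.66 in C57 (limma adjusted p = 0.0061) and by 2.29 ± 0.74 in AKR (0.037), and Csf3r by 2.35 ± 0.57 (0.0065) and 2.67 ± 0.63 (0.0090). The AKR excess had a median of 0.71 and ran from -0.47 ± 0.99 for Mmp8 to 3.08 ± 1.39 for Ltf. No gene was called, with all arrays or without the pair (limma; 0.068% and 0.299% of all genes were called higher), and 1 of the 9 had an unadjusted p under 0.05 with all arrays. S100a9 came closest without the pair, at 1.74 ± 0.50 (limma adjusted p = 0.054). Without uninstilled C57 array 1 as well, 2 genes passed, S100a9 and Ltf; with the pair kept, 1 did, Ltf.

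The levels of the strains are compared next, group by group. With LPS after air, AKR and C57 were within 0.5 units of each other in the mean for S100a8, Ltf, Mmp9, Retnlg, Csf3r and Trem1. S100a9 was 1.37 ± 0.64 higher in AKR (limma adjusted p = 0.092; 0.0021 without the pair) and Ngp 0.89 ± 0.34 higher (0.039; 0.0057 without the pair). The AKR minus C57 difference for Mmp8 was -0.82 ± 0.66 (limma adjusted p = 0.339; 0.062 without the pair). For S100a9, Ngp and Csf3r all AKR LPS arrays lay above all C57 LPS arrays, as they did for 6.32% of all genes; 4.69% were called higher. Over all genes the median of AKR minus C57 was -0.20 here, so relative to it the AKR levels are higher by that much more. Ngp lost its call without C57 air LPS 2, C57 air LPS 3 or any 1 AKR air LPS array. With the array set as a term in the fit, estimated from the AKR room air arrays at 3 and 6 weeks, no gene was called: S100a9 was 1.94 ± 0.96 (limma adjusted p = 0.233) and Ngp 1.30 ± 0.50 (0.129). That term rests on 2 arrays titled 3 weeks and 3 titled 6 weeks, so set and titled length cannot be told apart in it. It also widens the standard errors, for S100a9 from 0.64 to 0.96, so the loss of calls does not show that the strains are alike.

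With LPS after smoke no gene was called between the strains (limma; 2.75% of all genes were called higher in AKR; 2 of the 9 had an unadjusted p under 0.05). S100a8, S100a9 and Ngp had both AKR arrays above all C57 arrays, as did 8.68% of all genes. S100a9 was 1.87 ± 0.71 higher with all arrays (limma adjusted p = 0.067) and 0.60 ± 0.40 higher without the pair (0.346). Without C57 smoke LPS 1 or C57 smoke LPS 2 there were 3 calls.

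With saline after air, by contrast, AKR read below C57 for all 9 genes, with a median difference of -1.38 beside -0.16 over all genes. All AKR arrays lay below all C57 arrays for 7 genes, all but Ngp and Ltf, as they did for 42.7% of all genes. Mmp8 was called, at -2.27 ± 0.66 (limma adjusted p = 0.0089; 31.1% of all genes were called lower), and without the pair 7 genes were (34.5% of all genes), or 6 without C57 air saline 1 as well. Markers of several other cell types were lower in AKR in the same comparison, and those of others were not. All 5 tested B cell markers were called lower (list median -2.61), as were all 5 T cell markers (-1.08), both erythroid markers (-1.33), 5 of 8 macrophage markers (-0.84; 7 called without the pair) and 4 of 6 monocyte markers (-1.18). Of 7 markers of lung epithelium and endothelium, 2 were called higher and 2 lower (list median 0.13). None was called of 6 heart muscle markers (0.73), 5 genes of dividing cells (-0.10) and 1 tested mast cell marker (-0.06). The part of these cell types in the result was not tested. With the array set as a term, which has the limits given above, none of the 9 was called, and Mmp8 stood at -1.97 (limma adjusted p = 0.238). In room air alone, where both strains lie in 1 set, no gene was called (limma; 2.69% of all genes were, in either direction; 1 of the 9 had an unadjusted p under 0.05): S100a8 differed by 0.03 ± 0.79, Mmp8 by -0.04 ± 0.66 and Trem1 by -0.14 ± 0.68. Ngp (5.54 to 6.13 in AKR, 5.16 to 5.30 in C57) and Csf3r (8.45 to 8.93 in AKR, 7.87 to 8.16 in C57) had every AKR array above every C57 array, as did 11.6% of all genes. Ltf was called, 3.72 lower in AKR, when C57 array 1 was left out, and when no other single array was.

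Against room air alone, saline left all 9 genes uncalled in both strains (limma; 0.0136% of all genes were called in C57 and 0.687% in AKR; 1 and 0 of the 9 had an unadjusted p under 0.05). In C57, 6 of the 9 genes had every saline array above every room air array: S100a8, Ngp, Mmp8, Mmp9, Csf3r and Trem1, a separation that 7.94% of all genes had. The C57 room air arrays are titled 6 weeks and the saline arrays 3 weeks, while in AKR both are titled 3 weeks. In C57, and so in the strain difference below, instillation and titled length cannot be told apart. Mmp8 read 6.20, 5.86 and 5.68 in uninstilled C57 and 7.21, 6.99 and 6.61 after saline (1.02 ± 0.66, limma adjusted p = 0.947), and Csf3r read 7.996, 8.16 and 7.87 against 9.36, 8.79 and 8.57 (0.90 ± 0.57, 0.932). In AKR at 3 weeks Mmp8 read 5.36 and 5.79 and after saline 4.69, 4.85 and 4.46, and Trem1 5.75 and 6.02 against 5.31, 5.29 and 5.56; these 2 genes had every saline array below every room air array, as did 27.2% of all genes. The AKR change minus the C57 change was below 0 for 8 of the 9 genes, with a median of -0.86, and above 0 for Ltf, at 2.53 ± 1.39 (limma adjusted p = 0.335; 0.299 without the pair). It was -1.93 ± 0.99 for Mmp8, -1.36 ± 0.85 for Csf3r and -1.20 ± 1.19 for S100a8, with limma adjusted p of 0.302, 0.401 and 0.628 (1.17% of all genes were called lower with all arrays). Without the pair Mmp8 (0.041) and Csf3r (0.025) passed (3.23% of all genes were called lower). With 1 further array left out the count of calls lay between 0 and 2, and was 0 without uninstilled C57 array 3, either uninstilled AKR array, C57 air saline 1, AKR air saline 1 or AKR air saline 3.

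**Figure D4:**
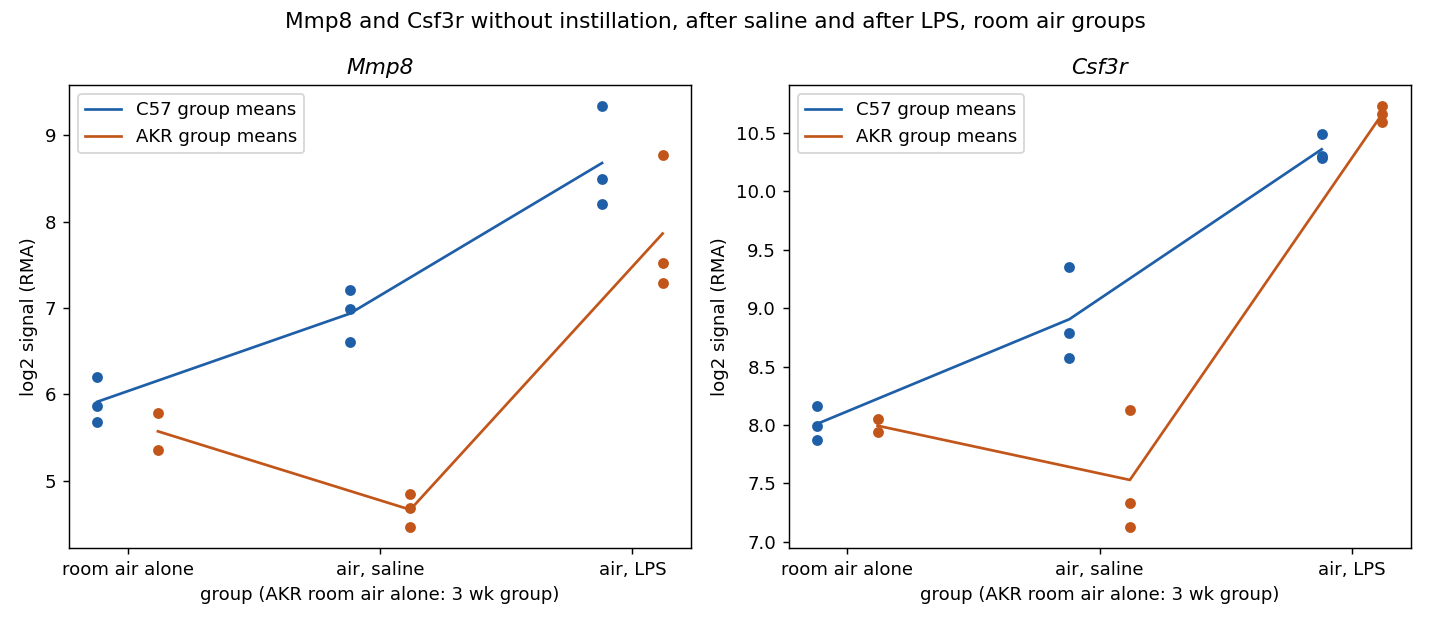
Log2 signal of Mmp8 and Csf3r (vertical axis) without instillation, after saline and after LPS (horizontal axis) in mice that breathed room air, with points for arrays and lines joining group means. The 6-week C57 and 3-week AKR groups are close without instillation, and the strains part after saline, where AKR lies below C57, and Csf3r comes to within 0.5 units again after LPS. In this figure strain and set of arrays cannot be told apart, and the uninstilled groups also differ in titled length. The 6-week AKR group, in the same set as C57 and not drawn, averaged 8.66 for Csf3r against 8.01 in uninstilled C57, and 5.88 for Mmp8 against 5.92.

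Smoke against air, at the same instillation, left the 9 genes uncalled with all arrays in both strains, with saline or LPS (limma; 0 of the 9 had an unadjusted p under 0.05). Of all genes 0% were called in C57, with saline or LPS, and 0.034% with saline and 0.0068% with LPS in AKR. For saline the differences in C57 ran from -0.30 for Ngp to 0.51 for Trem1, with a median of 0.12 and 6 of 9 above 0. Without the pair all 9 lay below 0, from -0.63 for Ngp to -0.20 for Ltf with a median of -0.48, Trem1 stood at -0.39 ± 0.23, and none was called (limma adjusted p of 1 for each). In AKR they ran from -0.31 for Mmp9 to 0.85 for Ltf. For LPS they ran from -0.80 to 0.23 in C57 with the pair and from 0.34 to 0.77 without it. In AKR with LPS, Trem1 read 9.33, 9.57 and 8.63 after air and 10.20 and 10.05 after smoke, 0.95 ± 0.76 higher (limma adjusted p = 0.566); without the pair it was called (0.95 ± 0.23, adjusted p = 0.037; 1.22% of all genes were called higher). Mmp9, S100a8 and Csf3r also had both smoke arrays above all air arrays there, as did 23.9% of all genes, and were not called. Without the pair the count in AKR with LPS was 0 when AKR air LPS 1 or AKR air LPS 3 was also left out. It was 2 when AKR air LPS 2 was. The smoke group there has only 2 arrays, so leaving out either leaves 1.

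In the order of the 11 group means, 5 genes peaked in AKR smoke LPS (S100a8, Ngp, Mmp9, Csf3r, Trem1), 2 in AKR air LPS (S100a9, Ltf) and 2 in C57 air LPS (Mmp8, Retnlg). Without the pair the last 2 peaked in C57 smoke LPS instead, with means of 9.08 against 8.68 in C57 air LPS for Mmp8 and 10.20 against 9.64 for Retnlg, and the other 7 peaked where they had. With or without the pair, the lowest group was an AKR group for 8 genes, and for Ngp it was uninstilled C57. Most neighbours in the order overlapped: of 10 neighbouring pairs of groups, 7 did for Mmp8, Csf3r and Trem1, 8 for S100a8, S100a9, Ngp and Mmp9, 9 for Retnlg and all 10 for Ltf. Without the pair 6 to 7 did, and all 10 for Ltf. Trem1 spanned from 5.38 ± 0.15 (SD, n = 3) in AKR air saline to 10.13 ± 0.10 (SD, n = 2) in AKR smoke LPS, and Ngp only from 5.24 ± 0.07 (SD, n = 3) to 7.32 ± 0.13 (SD, n = 2). For the calprotectin genes the LPS difference after air in C57 was 1.29 for S100a9 and 2.07 for S100a8, neither called, and in AKR the rises were 4.06 and 4.28. Whether these gaps differ was not tested.

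Ltf stood apart from the other 8. It was called in no comparison with all arrays or with only the discordant pair left out. Its level varied within groups more than in 99.9% of all genes tested: uninstilled C57 arrays read 7.46, 11.64 and 11.30, and AKR air LPS arrays 11.47, 9.47 and 9.996. Wide spread was not particular to Ltf. The other 8 lay between the percentiles 96.1 (Ngp) and 99.7 (S100a8) with all arrays. Without the pair they lay between 82.9 (Mmp9) and 98.5 (Mmp8), and Ltf stayed at 99.9. Lactoferrin is made by airway glands and epithelium as well as by neutrophils. Over the 11 group means, the nearest gene to Ltf was Agr2 (root mean square distance 0.42), a protein disulfide isomerase of mucus-secreting cells. Over 31 arrays, after group means were removed, Ltf followed Agr2 (r = 0.90) and not S100a9 (r = 0.0032), as a description of arrays that share groups and processing. Agr2 was picked from all genes tested by its nearness to Ltf on these same arrays, and S100a9 was not. Which cells gave the Ltf signal was not tested. On the same basis S100a8 (r = 0.97), Csf3r (0.95), Mmp8 (0.90), Trem1 (0.85), Mmp9 (0.82), Ngp (0.81) and Retnlg (0.76) followed S100a9. Without the discordant pair these were lower: S100a8 (0.91) and Csf3r (0.82) stayed close, Mmp8 (0.66) and Ngp (0.61) less so, and Trem1 (0.37), Mmp9 (0.21) and Retnlg (0.061) least. Ltf stood at -0.28 against S100a9 without the pair.

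**Figure D5:**
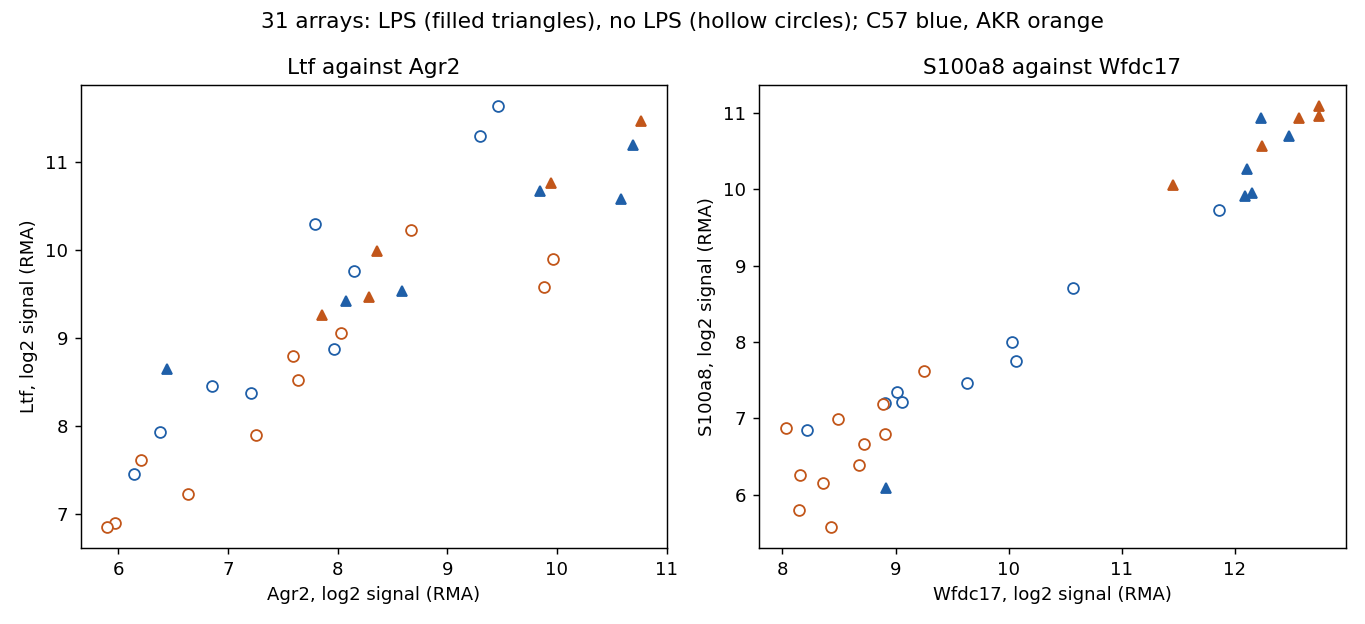
Log2 signal of Ltf against Agr2 (left) and of S100a8 against Wfdc17 (right) on 31 arrays, with LPS arrays as filled triangles, others as hollow circles, C57 in blue and AKR in orange. Ltf follows Agr2 with LPS and other arrays mixed along the range, while S100a8 and Wfdc17 separate LPS arrays from the rest except for the discordant pair.

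For the other genes the nearest by group means were Wfdc17 for S100a8 (distance 0.20), Cxcr2 for S100a9 (0.28), Mcoln2 for Ngp (0.21), Gpr141 for Mmp8 (0.19), Osm for Mmp9 (0.15), Tap1 for Retnlg (0.27), Lilrb4a for Csf3r (0.20) and S100a8 for Trem1 (0.23). Cxcr2 is the neutrophil receptor for CXC chemokines, and Osm encodes the cytokine oncostatin M.

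Other neutrophil genes are given by list. Of all genes tested, 9.45% were called higher with LPS after air in AKR and 11.5% in C57 (11.8% and 15.2% without the pair). After smoke 16.9% were in AKR, and in C57 0% with all arrays and 10.9% without the pair. Shares of all genes called lower with LPS are not given here or for the lists that follow. Of 15 measured surface receptors, 13 rose with LPS after air in AKR and 10 in C57 (13 without the pair), with list medians of 2.69 and 1.74. After smoke 13 rose and 1 fell in AKR, and in C57 0 passed with all arrays and 14 rose without the pair. The largest changes in AKR were those of Clec4e (5.41 ± 1.00, limma adjusted p = 7.4e-04) and Clec4d (4.29 ± 0.77, 5.8e-04), C-type lectin receptors of microbial and damage ligands, and Cxcr2 (3.69 ± 0.71, 0.0010). All 5 measured NADPH oxidase genes, which make the oxidative burst, rose in AKR and 3 of 5 in C57 (5 without the pair); Cybb, its catalytic subunit, rose by 2.36 ± 0.31 in AKR (limma adjusted p = 4.7e-05) and differed by 0.87 ± 0.31 in C57 (0.058). Of 6 other granule and secreted genes tested, 3 rose in each strain (4 in C57 without the pair). They were Lcn2, Mmp25 and Olfm4 in AKR and Lcn2, Mmp25 and Hp in C57. Lcn2, which binds bacterial siderophores and is also made by epithelium, rose by 2.93 ± 0.54 and 2.36 ± 0.54. Olfm4 was above the filter on 9 of 31 arrays, Camp on 5, Padi4 on 3 and, of the surface receptors, Ly6g on 12. How many of those arrays had no LPS was not counted, so these tests may have rested on LPS arrays as that of Ngp did. The primary granule genes Mpo, Elane, Prtn3 and Ctsg were measured and none was tested, since Mpo and Prtn3 were above the filter on 1 array each and Elane and Ctsg on 0.

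Of 11 ligands, receptors, adaptors and inhibitors that act with these genes, 5 rose and 1, the metalloproteinase inhibitor Timp2, fell in AKR after air, and 5 rose in C57 (6 in each strain rose without the pair). Timp1, the inhibitor of Mmp8 and Mmp9, rose in both strains, by 3.35 ± 0.85 (limma adjusted p = 0.0086) in AKR and 4.21 ± 0.85 (0.0046) in C57. Pglyrp1, a reported ligand of Trem1, rose by 2.02 ± 0.44 (0.0028) and 1.63 ± 0.44 (0.016). Tyrobp rose by 1.68 ± 0.28 in AKR (limma adjusted p = 3.0e-04) and differed by 0.73 ± 0.28 in C57 (0.072). Csf3, the ligand of Csf3r, lay above the filter on 10 of 31 arrays and rose by 0.79 ± 0.21 in AKR (limma adjusted p = 0.013). Its test, too, may have rested on LPS arrays. Timp2 and Csf3 are named outside the rule, after their values were seen.

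Markers of some other cells also changed with LPS, and the shares of all genes called higher are those given with the lists above. Of 6 tested monocyte markers, 5 rose with LPS after air in AKR and 2 in C57; Ms4a4c read 3.51 ± 0.47 higher in AKR (limma adjusted p = 5.0e-05) and Cd14 3.49 ± 0.61 (5.2e-04). Of 8 macrophage markers 4 rose in each strain (and 1 fell in C57 without the pair). The mean of the monocyte list, centred on its level over all arrays, ran from -1.29 to -1.14 in AKR air saline, 0.58 to 1.37 in AKR air LPS, -0.10 to 0.23 in C57 air saline and 0.93 to 1.52 in C57 air LPS. S100a8, S100a9 and Trem1 are known in monocytes too, and the part of these cells in the result was not tested. All 5 tested B cell markers fell with LPS after air in C57 and none passed in AKR, where 3 rose without the pair; of 5 T cell markers 4 rose in AKR and 0 passed in C57. Of 7 markers of lung epithelium and endothelium, 1 fell in AKR and none passed in C57 (2 and 1 fell without the pair), and of 5 genes of dividing cells none passed in either. Of 6 heart muscle markers, Nppa was above the filter on 25 of 31 arrays and the others on all 31, with Myh6 between 8.16 and 12.4. None of the 6 passed (without the pair 1 fell in C57), nor did either of 2 erythroid markers or the 1 tested mast cell marker. All 4 measured eosinophil markers, Epx, Prg2, Ccr3 and Il5ra, were below the filter on all 31 arrays.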

How the data were processed

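The deposited values are log2 signals that the authors obtained with RMA (background correction, quantile normalization and summary over a probe set), per the submitters' processing notes; version and settings are not given in the sources used here. They cover 35556 probe sets on 31 arrays, and 21789 of the 23410 annotated ones carry 1 gene symbol. A gene with several probe sets was read from the one with the highest mean, which gave 19938 genes; each of the 9 genes has 1 probe set. Genes above the 40th percentile of an array on at least 3 arrays were tested (14705). Differences were fitted with limma 3.58.1 in R 4.3.3: 11 group means, 20 residual degrees of freedom, empirical Bayes moderation, two-sided tests, Benjamini-Hochberg adjustment over all genes tested and a threshold of 0.05. "Rose" and "fell" mark only calls, and differences between strains in a change are contrasts of the same fit. The code was tested on simulated data. Figures were drawn with matplotlib 3.10.9.

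The genes and the lists were chosen with earlier results of these data known. All 9 genes are named; of each list, up to 3 genes with the largest change are named, and for each of the 9 the nearest gene by group means. Group values are spread between arrays, whose number limits the precision, and p-values measure that spread only. Same-numbered arrays paired in 1 comparison of 3 pairs, saline against room air alone in C57, where the correlations of their deviations were 0.23 to 0.41. Alternatives were a replicate block, other filters and normalizations, array weights, the array set, and leaving out arrays.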

Additional observations from a re-analysis of the deposited data

Results flagged for a closer look

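For Mmp8 every C57 saline array lay above every uninstilled C57 array, as for 7.94% of all genes. Every AKR saline array lay below every uninstilled AKR array, as for 27.2% of all genes. The AKR change minus the C57 change was -1.93 ± 0.99 (limma adjusted p = 0.302; 0.041 without the discordant pair). Trem1 had the same opposite order in the strains, with a difference of -0.86 ± 1.01 (limma adjusted p = 0.697; 0.111 without the pair). The opposite order was seen first and the test of the difference was added afterwards.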

How the results depend on the processing

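Counts here are of the 9 genes called. Shares over all genes are given above for the fits with all arrays and without the pair only. Counts under the other alternatives therefore cannot be set against all genes. The 8 calls with LPS in AKR, after air and after smoke, were 8 under each of 8 alternatives and 7 to 8 with 1 array left out. Without the discordant pair the counts were 7 for LPS after air in C57 (1 with all arrays), 8 for LPS after smoke in C57 (0), 5 for the strain difference in the LPS change after air (0), 2 for AKR against C57 with LPS after air (1), 7 with saline after air (1), and 1 in AKR with LPS between smoke and air (0). Fitting the groups of a comparison alone gave 7, 2, 2 and 7 for LPS after air in C57, the strain difference after air, and AKR against C57 with LPS and with saline after air. Array weights, whose estimation did not fully converge, gave 7 and 8 for LPS in C57 after air and smoke, 2, 4 and 3 for the strain difference after air, after smoke and against room air alone, 3, 4 and 1 for AKR against C57 with LPS, saline and room air alone, 1 in C57 with LPS between smoke and air, and 1 for saline against room air alone in C57. With the array set as a term, AKR against C57 gave 0 with LPS after air and 0 with saline after air. Leaving out each array in turn gave 0 to 1 for LPS after air in C57, 0 to 8 for LPS after smoke in C57, 0 to 5 and 0 to 1 for the strain difference after smoke and against room air alone, 0 to 1, 0 to 3 and 1 to 2 for AKR against C57 with LPS after air, LPS after smoke and saline after air, and 0 to 1 in room air alone. The replicate block (same-numbered arrays paired) gave 1 and 8 calls for LPS after air in C57 and AKR and changed no count. The cause of these movements was not tested. No direction of a called value reversed. Another probe set per gene could not be tried, since each has 1. The low signals of Ngp, Mmp8 and Trem1 without LPS limit what can be read of their change.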
